A study of Mus musculus with 4 samples.

Results

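Dendritic cells of mouse inguinal white adipose tissue (iWAT) were examined as the nuclei that the deposited annotation calls Dend, 677 of 32552 nuclei (2.08%). Accessible chromatin was profiled nucleus by nucleus with single-nucleus ATAC-seq (snATAC-seq), in which a transposase tags open DNA and combined barcodes name the nucleus. The tissue came from 21 male C57BL/6J mice aged 8 weeks, with no altered allele in the labels, 3 in each of 7 groups. The day0RT mice stayed at 22 °C, the day1C, day3C and day7C mice were kept in the cold (6.5 °C in the labels) for 1, 3 or 7 days, and the day1CL, day3CL and day7CL mice received CL-316,243 (CL), an agonist of the β3-adrenergic receptor, at 1 mg/kg for 1, 3 or 7 days. Nuclei came from a portion of the chopped whole tissue, with no isolation of the stromal fraction. The 4 GEO samples are sequencing lanes that each hold every mouse, so the mouse, group and cluster of a nucleus come from the deposited annotation.

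Dendritic cells take up antigen, move to lymph nodes and present it to T cells. Flt3, the receptor for their growth factor, and Zbtb46, a transcription factor of conventional dendritic cells, are used to recognise the lineage. On maturation NF-kB, a family of transcription factors that includes the product of Nfkb1, turns on genes for costimulation and migration, among them the chemokine receptor Ccr7 and the actin-bundling protein Fscn1. The inguinal pad holds a lymph node, in which such cells also live.

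The annotation has 12 clusters. Dendritic nuclei are compared here with the 4 lymphoid clusters (B cells, T cells, CD4 and CD8) and the 6 non-immune clusters (white adipocytes, beige adipocytes, the progenitors APC1 and APC2, vascular endothelial cells or VEC, and vascular smooth muscle cells or VSMC), with macrophages beside them. The matrix holds a 1 where a nucleus has reads in a peak, so a count at 1 peak is a number of nuclei, and a nucleus adds a count at each of its peaks. The dendritic nuclei held 1317187 counts, with a median of 1335 per nucleus and a range of 229 to 15042. They were summed per mouse where a mouse had at least 10 of them, which left 17 mice, since day3C mouse 1, day1CL mouse 3, day3CL mouse 1 and day3CL mouse 2 had 4, 8, 7 and 0. For each gene the counts of peaks on its body or 2000 bases upstream were added and scaled to counts per 1000000 gene counts (CPM), and the 17 libraries held 9989 to 216850 gene counts.

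Some libraries stood apart. Lymphocytes were 11.9% of nuclei in day1CL mouse 3, 14.1% in day3CL mouse 2 and 36.8% in day3C mouse 1, against at least 58.2% in each other mouse. None of these 3 mice had enough dendritic nuclei for a library, so they enter the shares of nuclei and, where they had at least 10 nuclei of another cluster, the means of that cluster. The letters of a barcode recurred in another mouse for 8739 nuclei (26.8%), of which 117 were dendritic (17.3% of 677). All 4824 such pairs joined mice with the same replicate number within the cold or within the CL arm, and no day 0 nucleus was among them. The paired nuclei shared a cluster in 21.5% of pairs, against 20.7% for any pair of nuclei.

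The sequences below are examples of regions that were open in these nuclei, shown for the motif letters they hold, as windows of 150 bases on the plus strand of GRCm38 (mm10). The first is from the Flt3 peak with the most dendritic counts, and the next 3 ranked 3rd, 4th and 6th among the 8 peaks with the highest ratio to the next lymphoid or non-immune cluster, of peaks with at least 40 dendritic counts. The ranking leaves macrophages out. They were chosen because they hold letters searched for, and the other 5 of the 8 hold none in the whole peak. The last ranked 11th and was added after its values were seen, because it holds NF-kB letters at 2 places. Capitals mark matches, on either strand, to GGGANTTTC (NF-kB), GAGGAAGT (PU.1), GAAANNGAA (interferon regulatory factors, IRF), TGANTCA (AP-1), TGTGGTT (RUNX) or TTGCNNAA (CEBP).
Flt3 gene body, chr5:147356072-147356221: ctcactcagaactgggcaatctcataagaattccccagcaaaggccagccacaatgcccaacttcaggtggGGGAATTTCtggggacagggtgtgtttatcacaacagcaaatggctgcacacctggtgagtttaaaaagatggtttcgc
Hecw2 upstream, chr1:54221787-54221936: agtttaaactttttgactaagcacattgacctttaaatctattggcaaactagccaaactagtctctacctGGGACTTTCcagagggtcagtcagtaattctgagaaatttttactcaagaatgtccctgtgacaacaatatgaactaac
Dscaml1 intron, chr9:45494894-45495043: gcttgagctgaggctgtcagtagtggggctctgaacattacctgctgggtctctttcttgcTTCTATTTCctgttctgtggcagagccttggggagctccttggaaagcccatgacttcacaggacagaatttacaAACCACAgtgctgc
Atp2b1 upstream, chr10:98500492-98500641: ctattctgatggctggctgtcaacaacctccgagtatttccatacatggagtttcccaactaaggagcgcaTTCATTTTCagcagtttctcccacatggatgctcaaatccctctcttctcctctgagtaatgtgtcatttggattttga
Tbc1d9 intron, chr8:83203610-83203759: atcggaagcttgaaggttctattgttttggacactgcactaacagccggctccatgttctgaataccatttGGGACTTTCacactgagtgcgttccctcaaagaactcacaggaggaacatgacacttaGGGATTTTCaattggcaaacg

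The Flt3 peak (chr5:147355884-147356225) lies in the gene and overlaps an annotated exon. It held 63 dendritic counts from 15 of 17 mice, at 47.8 CPM against 3.04 CPM in macrophages and 3.26 CPM in VEC, the next of the lymphoid and non-immune clusters. Counts and levels of single peaks are summed over all nuclei of a cluster, here the 677 dendritic nuclei of 20 mice, with levels as CPM of all peak counts, while the number of mice is of the 17 libraries. The Flt3 window carries the NF-kB letters GGGAATTTC. The peak upstream of Hecw2 (chr1:54221679-54222343), in no annotated gene, held 61 dendritic counts from 15 of 17 mice, at 46.3 CPM against 1.01 CPM in macrophages and 0.673 CPM in APC2, the next of the lymphoid and non-immune clusters, and it carries GGGACTTTC. The peak in a Dscaml1 intron (chr9:45494894-45495287) held 74 dendritic counts from 16 of 17 mice, at 56.2 CPM against 0.506 CPM in macrophages and 0.834 CPM in T cells, the next of the lymphoid and non-immune clusters, and its capitals are IRF and RUNX letters. The peak that lies 413784 bases from the start of Atp2b1 (chr10:98500324-98500920) held 73 dendritic counts from 15 of 17 mice, at 55.4 CPM against 0.506 CPM in macrophages and 0.887 CPM in B cells, the next of the lymphoid and non-immune clusters, and it carries IRF letters. In the Tbc1d9 intron (chr8:83203575-83203885) the peak held 42 dendritic counts from 12 of 17 mice, at 31.9 CPM against 1.52 CPM in macrophages and 0.673 CPM in APC2, the next of the lymphoid and non-immune clusters. Macrophages, the cluster most like the dendritic nuclei over all genes, were at 3.04 CPM or less at each of the 5 peaks, but these were chosen. Over the 12 peaks ranked highest they ran from 0.506 to 24.8 CPM. The highest was the peak nearest the start of Eya3, where dendritic nuclei had 33.4 CPM, and the peak nearest Ptpn5 had 14.2 CPM in macrophages against 34.9 CPM.

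The annotation was checked against the markers of the lineage. These comparisons of clusters are descriptions with no test, because the clusters were drawn from the same counts. Flt3 (ENSMUSG00000042817, chr5:147330741-147400489) stood at 599, 498 and 626 CPM in the dendritic nuclei of the 3 day 0 mice and at 182 to 701 CPM (median 444) in the 14 treated mice, so the groups overlapped. Its mean was 473 ± 139 CPM (SD, n = 17 mice), the highest of the 12 clusters, against 230.3 ± 81.8 CPM in macrophages (n = 21), 195 ± 14.9 CPM in B cells (n = 21) and 25.0 ± 6.86 CPM in white adipocytes (n = 21). Within mice it exceeded the mean of the lymphoid clusters by 1.98 ± 0.56 and that of the non-immune clusters by 3.99 ± 0.73 on the log2 CPM scale, in 17 of 17 mice each.

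Zbtb46 (ENSMUSG00000027583, chr2:181387762-181459426) stood at 161, 202 and 159 CPM in the day 0 mice and at 52.9 to 293 CPM (median 153) in the treated mice. Its mean of 159 ± 71.1 CPM was above macrophages (108 ± 38.8 CPM) and B cells (39.1 ± 11.1 CPM), but VSMC had 175 ± 45.3 CPM (n = 10), within the spread of the dendritic value. The within-mouse differences were 1.71 ± 0.74 from the lymphoid and 1.11 ± 0.75 from the non-immune clusters. Nfkb1 (ENSMUSG00000028163, chr3:135584655-135691547) was about as open in B cells and T cells as in dendritic nuclei and less open in CD4 and CD8 cells. It stood at 281, 339 and 238 CPM in the day 0 mice and at 139.8 to 601 CPM (median 329.7) in the treated mice, with a mean of 329 ± 125 CPM against 333 ± 91.2 CPM in T cells, 322 ± 27.7 CPM in B cells, 174 ± 31.5 CPM in CD4 cells, 211 ± 27 CPM in CD8 cells and 284 ± 82.4 CPM in macrophages. It differed by 0.31 ± 0.58 from the lymphoid and by 1.46 ± 0.59 from the non-immune clusters.

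**Figure D1:**
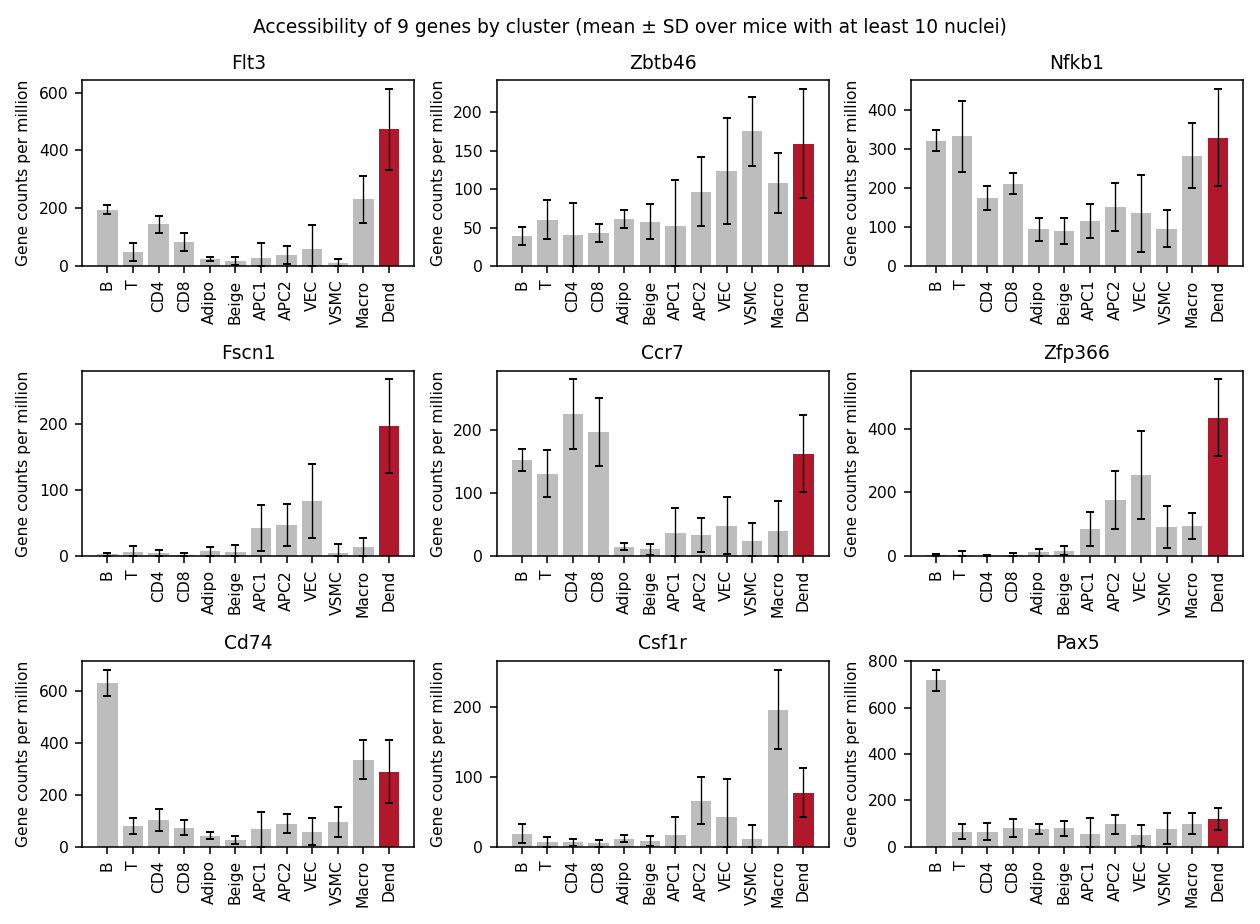
Accessibility of marker genes by cluster in gene counts per 1000000 (CPM), as mean and SD over the mice with at least 10 nuclei of the cluster. Flt3 is highest in dendritic nuclei at 473 CPM, while Nfkb1 is about as high in T cells and B cells and lower in CD4 and CD8 cells.

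Single nuclei gave the same order for Flt3 at a fixed depth. Each nucleus was thinned to 500 counts, which left out 64 dendritic, 208 macrophage, 1608 B cell and 266 adipocyte nuclei with fewer. Flt3 then had a count in 19.6% of 613 dendritic nuclei (exact 95% interval 16.5 to 22.9), 8.52% of macrophages, 8.08% of B cells and 0.882% of adipocytes. Without thinning the shares were 46.1%, 21.5%, 18.7% and 7.13%, at median depths of 1335, 1128, 974 and 2561 counts. Fscn1 had a count in 9.46% of thinned dendritic nuclei (unthinned 25.3%) and 1.08% of macrophages (unthinned 2.36%). Nfkb1 had one in 11.7%, 11.6% and 13.3% of dendritic, macrophage and B cell nuclei (unthinned 34.0%, 27.6% and 28.3%). The B cell factor Pax5 had one in 5.06% of dendritic nuclei and 26.6% of B cells (unthinned 14.5% and 50.0%).

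Across all genes, 326 of the 9864 that passed the filter on low counts (3.3%) were higher in dendritic nuclei, meaning by at least 1 on the log2 scale over both sets of clusters and in at least 80% of the 17 mice, and 154 (1.56%) were lower. The rule uses the mean of each set, so a single lymphoid or non-immune cluster had a summed level at least as high for 51 of the 326, and macrophages, which are in neither set, for 47. The median gene differed by -0.24 from the lymphoid and by 0.11 from the non-immune clusters, and the lists below are read beside those medians and the 3.3%. The lists were chosen with earlier results of these data known, and the clusters were drawn from the same counts. Counts of higher genes in a list are therefore descriptions with no test. Over the 9864 genes dendritic nuclei were most like macrophages, with a Spearman rho of 0.831, then B cells (0.674) and T cells (0.661), and least like white adipocytes (0.327). These correlations are across genes, which are not independent, and the clusters share peaks and lanes.

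Lineage factors were higher in 8 of 16 measured genes, with medians of 1.07 and 1.47 against the lymphoid and non-immune clusters. Zfp366 (DC-SCRIPT), a nuclear regulator known from dendritic cells, had the widest gap. It stood at 466, 555 and 497 CPM in the day 0 mice and at 194 to 629.6 CPM (median 424) in the treated mice, and it was above macrophages in 17 of 17 mice. It exceeded the lymphoid clusters by 5.20 ± 0.45 and the non-immune clusters by 2.83 ± 0.59, and VEC came next with 255 ± 138 CPM. Batf3, a transcription factor that cross-presenting dendritic cells need, differed by 2.86 ± 1.08 and 2.74 ± 1.02. Cbfa2t3, a corepressor, differed by 2.83 ± 0.33 and 1.80 ± 0.60, but it shares 22 peaks with the gene model Gm20388 and these cannot be separated. Csf2rb, the common receptor chain for GM-CSF, differed by 3.19 ± 0.60 and 1.30 ± 0.63, while APC2 alone was higher, with a summed level of 179 against 146 CPM. Spi1, the gene of the myeloid factor PU.1, was higher than both sets as well, yet macrophages had 329 ± 88.8 CPM beside 332 ± 90.7 CPM. Ikzf1 and Irf4, factors that lymphocytes also use, differed by -1.44 ± 0.59 and -1.13 ± 1.40 from the lymphoid clusters. Irf8, which cross-presenting dendritic cells (cDC1) require, was lower in dendritic nuclei than in macrophages of the same mouse in 17 of 17 mice, with 121 ± 54.1 against 274 ± 87.0 CPM.

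Genes of mature, migrating dendritic cells were higher in 7 of 12, with medians of 1.52 and 1.66. Fscn1 (ENSMUSG00000029581, chr5:142960343-142973185) stood at 249, 169 and 169 CPM in the day 0 mice and at 100.1 to 339.8 CPM (median 188) in the treated mice. Macrophages had 14.1 ± 14.0 CPM, and the dendritic value was above theirs in 17 of 17 mice. Fscn1 differed by 3.98 ± 0.61 from the lymphoid and 2.89 ± 0.67 from the non-immune clusters. Cacnb3, a calcium channel subunit, differed by 3.07 ± 0.77 and 2.65 ± 0.81, and Anxa3, an annexin, by 3.74 ± 0.42 and 1.69 ± 0.58. APC1 alone was as open at Anxa3, with 189.8 ± 94.8 CPM against 183 ± 47.5 CPM in dendritic nuclei. Socs2, a feedback inhibitor of cytokine signalling, had 193 ± 50.3 CPM against 37.1 ± 22.3 CPM in macrophages. Cd83, Bcl2l14 and Il4i1 were the other 3, and Il4i1 shares peaks with neighbouring genes. Cd83 was as open in B cells alone, with 220.0 ± 30.3 CPM against 207 ± 66.9 CPM in dendritic nuclei.

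Ccr7, the receptor that guides cells to lymph nodes, is also used by lymphocytes and was not higher than both sets. It stood at 198, 216 and 199 CPM in the day 0 mice and at 0 to 245 CPM (median 165) in the treated mice. Its mean was 163 ± 61.6 CPM in dendritic nuclei, 225 ± 55.1 CPM in CD4 cells, 153 ± 17.2 CPM in B cells and 40.7 ± 46.7 CPM in macrophages. Ccl22, a chemokine of mature dendritic cells, fell under the filter on low counts. It had 68 counts over all dendritic nuclei and a mean of 58.9 ± 40.1 CPM over the 17 libraries, against 3.11 ± 4.81 CPM in macrophages, and the peak at its start (chr8:94745315-94745742) led all peaks with at least 40 dendritic counts, at 76.7 times APC2, the next of the lymphoid and non-immune clusters. Macrophages had 3.04 CPM at that peak against 51.6 CPM in dendritic nuclei.

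Costimulatory genes, through which dendritic cells activate T cells, were higher in 4 of 8. Cd40, the receptor by which helper T cells stimulate dendritic cells, stood at 119.9, 202 and 139 CPM in the day 0 mice and at 45.6 to 300.3 CPM (median 144) in the treated mice, and differed by 2.53 ± 0.63 and 3.11 ± 0.81. Its mean was 153 ± 63.2 CPM, beside 109 ± 14.0 CPM in B cells alone and 82.1 ± 32.8 CPM in macrophages. The T cell, CD4 and CD8 clusters were far lower at Cd40, with 4.88, 11.5 and 8.17 CPM. Havcr2, the gene of the inhibitory receptor TIM-3, differed by 2.34 ± 1.02 and 2.56 ± 1.07, and macrophages had 124 ± 55.4 CPM beside 84.1 ± 40.3 CPM. Cd80 and Cd86, the ligands of CD28, differed from the lymphoid clusters by 1.17 ± 0.98 and 1.13 ± 0.51. Cd86 had 175 ± 50.7 CPM against 154 ± 36.9 CPM in macrophages and was above them in 10 of 17 mice. Of the cytokine genes 2 of 7 were higher. Il15, a growth factor of NK and memory T cells, stood at 235, 235 and 417 CPM in the day 0 mice and at 132 to 376 CPM (median 297) in the treated mice, above macrophages in 17 of 17 mice, and differed by 3.58 ± 0.48 and 2.05 ± 0.51. Il18 was the other, with 66.2 ± 37.7 CPM beside 69.8 ± 41.8 CPM in macrophages. Of the chemokine and receptor genes 0 of 5 were higher. Of the genes for pattern recognition 1 of 16 was higher, Ly75, the antigen uptake receptor DEC-205, by 1.83 ± 0.61 and 3.16 ± 0.69. The counts of 0 of 5 and 1 of 16 are too small to set apart from the 3.3% of all genes.

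Lists of genes of single dendritic subsets had few members past the filter. Of the cDC1 list 2 of 7 were higher, beside 3.3% of all genes. These were Wdfy4, which cross-presentation needs, by 1.81 ± 0.63 and 2.40 ± 0.83, and Cadm1, an adhesion molecule, by 3.33 ± 0.63 and 1.12 ± 0.71. Macrophages were about as open at both. Wdfy4 had 184 ± 56.2 CPM against 197 ± 64.8 CPM in macrophages and was above them in 7 of 17 mice, and Cadm1 had 243 ± 108 against 268 ± 99.3 CPM and was above in 5 of 17. VSMC were also about as open at Cadm1, with 243 ± 81.4 CPM (n = 10). At Wdfy4 B cells alone had 161 ± 21.2 CPM and APC2 had 140 ± 60.7 CPM. The cDC1 receptors Xcr1 and Clec9a had 51 and 40 counts, and Clec9a was at 36.4 ± 27 CPM against 73.6 ± 34.1 CPM in macrophages. Of the cDC2 list 0 of 4 and of the plasmacytoid list 0 of 7 were higher, numbers too small to set apart from that share. Sirpa, a receptor of cDC2 cells, differed by 2.02 ± 0.56 from the lymphoid but by 0.20 ± 0.80 from the non-immune clusters. Cd209a, a cDC2 lectin, had 1 count, and Siglech, a plasmacytoid receptor, had 13. Summed over all genes of a list, macrophages were higher for each, with 1049.8 against 789.7 CPM for cDC1, 949.7 against 522 CPM for cDC2 and 1415 against 1171 CPM for plasmacytoid genes.

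MHC class II genes, whose products present antigen, are open in B cells too, and 0 of 10 were higher than both sets. That number is too small to set apart from the 3.3% of all genes. Their medians were 0.52 from the lymphoid and 1.90 from the non-immune clusters. Cd74, the invariant chain, stood at 295, 282 and 169 CPM in the day 0 mice and at 163 to 701 CPM (median 271) in the treated mice. B cells had 634 ± 50.4 CPM, macrophages 336 ± 76.0 CPM and dendritic nuclei 289 ± 122 CPM.

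In the NF-kB pathway 3 of 25 measured genes were higher, beside 3.3% of all genes, with medians of 0.26 and 1.10. A count of 3 is small and was not tested against that share. The level summed over the 26 genes was 4521 CPM in dendritic nuclei, 3246 CPM in macrophages and 3256 CPM in B cells. Among the subunits, Nfkb2, Rel and Rela differed from the lymphoid clusters by 0.26 ± 1.12, 0.60 ± 1.29 and 0.15 ± 0.71, each less than its SD. Relb, which dendritic cells use in maturation, fell under the filter with 70.6 ± 46.6 CPM against 20.9 ± 16.7 CPM in macrophages. B cells had 40.4 ± 8.69 CPM at Relb, within the spread of the dendritic value. Among the regulators, Tnfaip3, the gene of the inhibitor A20, stood at 267, 324 and 298 CPM in the day 0 mice and at 151 to 353 CPM (median 269) in the treated mice, and differed by 1.31 ± 0.31 and 1.36 ± 0.44. Its mean was 264 ± 58.3 CPM, beside 210 ± 57.1 CPM in APC2 alone and 198 ± 47.9 CPM in macrophages. Birc2, a ubiquitin ligase of the pathway, differed by 1.26 ± 0.47 and 1.10 ± 0.59, and APC2 alone was about as open, with 297 ± 62.7 CPM beside 315 ± 88.4 CPM. Ikbkb, a kinase that releases NF-kB, differed by 1.05 ± 1.20 and 2.07 ± 1.51, an SD above the first difference, and it was at -0.21 from the lymphoid clusters over promoter peaks alone. Traf1, an adaptor and NF-kB target, was above the non-immune clusters by 2.94 ± 0.69 and differed by 0.24 ± 0.45 from the lymphoid ones.

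**Figure D2:**
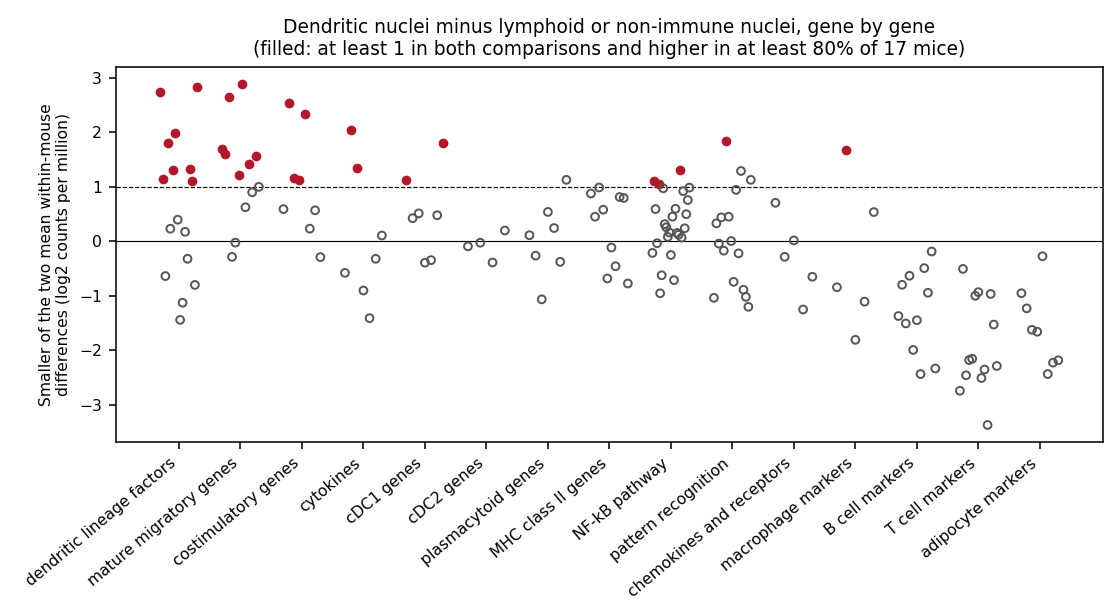
Genes that passed the filter on low counts, by list, at the within-mouse difference of dendritic nuclei from lymphoid and non-immune nuclei in log2 CPM averaged over 17 mice, each placed at the smaller of the differences. Filled points were higher than both sets. 7 of 12 mature migratory genes and 8 of 16 lineage factors were higher than both sets, against 3.3% of all genes. The lists were chosen with earlier results of these data known, so these counts are descriptions with no test.

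Outside the lists, the 12 genes with the largest smaller-of-both difference were Dscaml1, Mmp20, Dpp10, Kcnk6, Tnfrsf11a, Mreg, Grk3, Ctrc, Pik3r6, Tbc1d9, Mab21l3 and Fam3b. Dscaml1 (chr9:45426628-45753712), a cell adhesion gene known from neurons, stood at 383, 409 and 318 CPM in the day 0 mice and at 137 to 486 CPM (median 261) in the treated mice, above macrophages in 17 of 17 mice. It differed by 4.65 ± 0.60 and 3.57 ± 0.74. Tnfrsf11a, the gene of RANK, a survival receptor of dendritic cells, differed by 3.24 ± 0.71 and 3.22 ± 0.56. Mreg differed by 3.77 ± 0.30 and 3.20 ± 0.77, with 273 ± 83.9 against 63.1 ± 48.8 CPM in macrophages. Dpp10 was nearly as open in macrophages, with 153 ± 48.6 and 129 ± 46.6 CPM.

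Summed over their lists, macrophage, B cell, T cell and adipocyte markers were lower in dendritic nuclei than in their own clusters. Of 16 macrophage markers 5 passed the filter and 1 was higher than both sets, Csf1r, the receptor for the macrophage growth factor. The 16 summed to 385 ± 10.5 CPM in the day 0 mice (n = 3) and 467 ± 136 CPM in the treated mice (n = 14), a median of 46.0% of the macrophage level of the same mouse. Csf1r itself was at 77.2 ± 35.5 CPM against 197 ± 57.2 CPM, and the complement gene C1qb had 5 counts in all. Adgre1, also a macrophage marker, went the other way, with 57.1 ± 40.9 CPM in dendritic nuclei against 35.0 ± 31.8 CPM in macrophages. It was above them in 13 of 17 mice. The 12 B cell markers summed to 485 ± 96.3 CPM at day 0 and 505 ± 198 CPM in the treated mice, a median of 13.9% of the B cell level, with Ebf1 the most abundant. The 13 T cell markers summed to 585 ± 51.5 and 683 ± 151 CPM, a median of 17.8% of the CD4 level, with Cd247 the most abundant, and the 8 adipocyte markers to 445 ± 55.4 and 406 ± 125 CPM, a median of 13.9% with Lipe the most abundant. Of these 4 lists no gene was at 0. Of 8 monocyte and neutrophil, 5 NK cell, 7 progenitor and 7 endothelial markers, 1, 0, 5 and 6 passed the filter on low counts. None of those that passed was higher than both sets, and S100a8, Pi16 and Lum had peaks but 0 dendritic counts. Ly6c2, S100a9, Ly6g and Ncr1 had no peak among those used here, so they were not measured in any cluster. The part of other cell types in the dendritic values was not tested.

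Single peaks were compared by another rule, so their share is not set beside that of genes. Of 18700 peaks with at least 20 dendritic counts, which favours peaks open in these nuclei, 4276 (22.9%) were at least 2 times as high in dendritic nuclei as in each of the 10 lymphoid and non-immune clusters. Their median ratio to the next cluster was 5.19. Macrophages were at a median of 26.2% of the dendritic level at these peaks, and at least as high at 274. Few of the 4276 peaks, 7.39%, were within 2000 bases of the start of a gene, against 57.1% of the other counted peaks and 10.6% of all peaks. By nearest gene start, Id2, an inhibitor of DNA binding used in dendritic development, had 18 of them, Zfp366 and Zc3h12c had 17 each, Anxa3 had 11 and Batf3 had 10. The rule for peaks sums over mice and asks nothing of each mouse, so mice weigh by their counts. The day 0 mice held 255314, 251078 and 119608 of the 1317187 dendritic counts.

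NF-kB letters lay in 526 of the 4276 peaks (12.3%), in 6.13% of the other counted peaks and in 3.11% of all 189598 peaks. The other counted peaks are longer, with a median of 1027 bases against 405.5, while all peaks have 393. The single word GGGAATTTC lay in 2.74%, 1.29% and 0.709%. PU.1 letters lay in 13.1%, 12.7% and 6.44% of the same sets, AP-1 letters in 24.8%, 22.2% and 17.3%, IRF letters in 20.8%, 26.5% and 16.4%, and RUNX letters in 16.2%, 18% and 12.8%. Since most of the other counted peaks lie near gene starts, the dendritic-high and other counted peaks away from them were also compared. There NF-kB letters lay in 12.3% against 8.52%. The order turned for PU.1 letters, with 13.1% against 16.7%, and for AP-1 letters, with 25.3% against 29.0%. IRF letters lay in 20.8% against 28.6% and RUNX letters in 16.6% against 22.3%. The other counted peaks are longer there too, with a median of 824 bases against 407. CEBP letters lay in fewer dendritic-high peaks (18.5%) than in all peaks (25.3%). A match describes the sequence and is not a bound site.

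**Figure D3:**
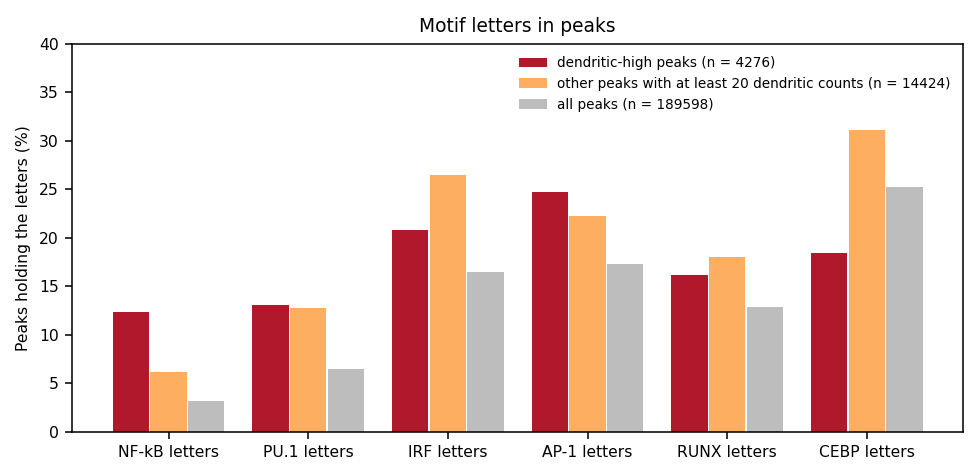
Percent of peaks that hold the letters of each motif on either strand, in the 4276 dendritic-high peaks, the other counted peaks and all peaks. NF-kB letters are in 12.3% of the dendritic-high peaks, 6.13% of the other counted peaks and 3.11% of all peaks.

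Over all peaks, the share of counts in peaks with NF-kB letters was 6.15% ± 0.301 in dendritic nuclei (SD, n = 17), 4.07% ± 0.244 in macrophages (n = 21), 4.04% ± 0.0480 in B cells (n = 21) and 3.4% ± 0.0518 in white adipocytes (n = 21). It was above macrophages and above B cells of the same mouse in 17 of 17 mice. APC2 had 5.99% ± 0.337 (n = 19), and dendritic nuclei were above it in 10 of 17 mice. For PU.1 letters the order differed, with 11.5% ± 0.273 in dendritic nuclei, 12.6% ± 0.370 in macrophages and 12.9% ± 0.226 in B cells, and the dendritic share was below both in 17 of 17 mice.

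The share of dendritic nuclei was lower in cold and CL mice than at day 0. Dendritic nuclei were 6.11%, 10.8% and 2.69% of all nuclei in the 3 day 0 mice. In the cold they were 1.65%, 1.71% and 1.63% at day 1, 0.258%, 0.672% and 1.16% at day 3 and 2.14%, 1.54% and 1.65% at day 7. With CL they were 1.59%, 2.84% and 0.720% at day 1, 0.550%, 0% and 0.940% at day 3 and 0.891%, 2.82% and 0.747% at day 7. All 9 cold mice were below every day 0 mouse, while 2 of 9 CL mice were above the lowest. The mouse at 0 had 1242 nuclei, and a floor of 3 counts allows a share of up to 0.242%.

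The mean was 6.52% ± 4.05 at day 0 (n = 3) and 1.31% ± 0.794 in the treated mice (n = 18), a difference of -5.21 percentage points (two-sided exact permutation test over mice, p = 0.00226). For cold the difference was -5.14 points (exact permutation p = 0.00455, the smallest that 3 against 9 mice allow), and for CL it was -5.29 points (exact permutation p = 0.0136). Adjusted over these 3 comparisons, which share the day 0 mice, the exact permutation p were 0.00677, 0.00682 and 0.0136. Cold and CL mice differed by 0.146 points (exact permutation p = 0.706).

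The difference was given again without the libraries that stood apart. Without the 3 mice low in lymphocytes it was -5.02 points, exact permutation p = 0.00368, and over nuclei with unshared barcodes it was -5.23 points, exact permutation p = 0.00150. As a share of nuclei other than lymphocytes, dendritic nuclei were 22.7% ± 12.2 at day 0, and the treated mice differed from them (-17.0 points, exact permutation p = 0.00376). Without day 0 mouse 2, the highest, the treated difference was -3.10 points, exact permutation p = 0.0158, and the cold difference was -3.02 points, exact permutation p = 0.0182. The CL comparison lost its call without day 0 mouse 1 (-5.49 points, exact permutation p = 0.0545) and without day 0 mouse 2 (-3.17 points, exact permutation p = 0.0545). Macrophages were 5.00% ± 0.975 of nuclei at day 0 and differed by -1.25 points in the treated mice (exact permutation p = 0.313), by -1.75 points in the cold (exact permutation p = 0.0227) and by -0.755 points with CL (exact permutation p = 0.814). Adjusted over these 3, the exact permutation p in the cold was 0.0682.

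Within each replicate number the day 0 mouse had the highest share, 6.11%, 10.8% and 2.69%, against 2.14%, 2.84% and 1.65% in the highest of its 6 treated mice. No day 0 barcode recurred in another mouse, so the way barcodes were shared and the treatment cannot be told apart. Fewer dendritic cells and more of the other nuclei cannot be told apart from shares, and how much lymph node each sample held was not tested.

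**Figure D4:**
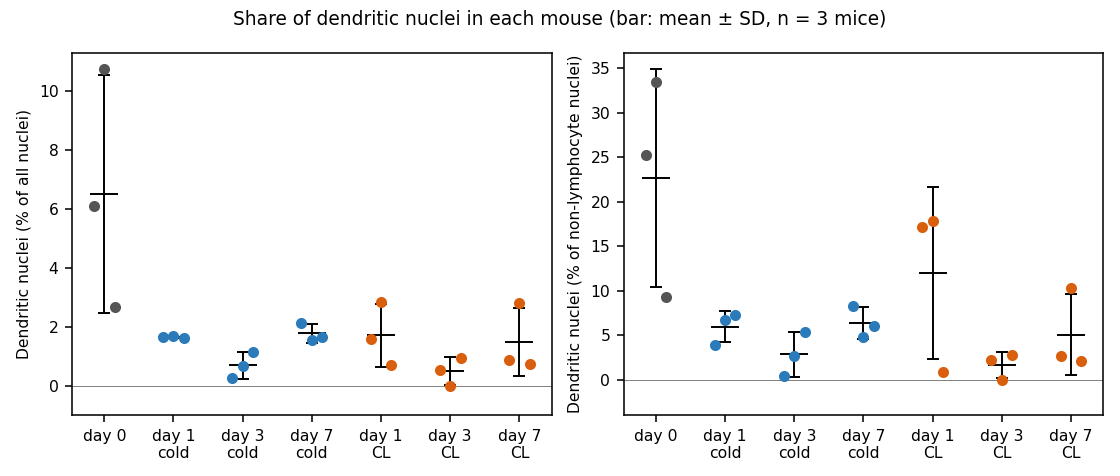
Dendritic nuclei as a percent of nuclei in each mouse, by group, with the mean and SD of 3 mice. The day 0 mice stand at 2.69% to 10.8% of all nuclei and the cold mice at 0.258% to 2.14%. The CL mice stand at 0% to 2.84%, with 2 of 9 above the lowest day 0 mouse.

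Dendritic nuclei held more counts than B cells and CD4 cells of the same mouse, the lymphocytes compared. The median per nucleus was above that of B cells in 15 of 17 mice, by 0.44 ± 0.35 (SD over mice) on the log2 scale (two-sided exact sign-flip permutation test, p = 0.000259). Against CD4 cells the difference was 0.47 (exact permutation p = 0.000122), and against macrophages 0.17 (exact permutation p = 0.142).

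Accessibility within dendritic nuclei was then compared between treated and day 0 mice over the 17 libraries. With edgeR, 1 of 1763 genes was past an adjusted p of 0.05 in treated mice (0.0567%), 0 in cold mice (0%) and 0 in CL mice (0%), while 134, 111 and 117 had an unadjusted p under 0.05. DESeq2 called 0 in each. The gene was Commd10, which encodes a member of the COMMD family of trafficking proteins. It stood at 64.6, 103 and 69.6 CPM in the day 0 mice and at 35.0 to 274 CPM (median 192) in the treated mice, from 1 to 22 counts a library. Of the 14 treated mice 12 were above every day 0 mouse. It rose by 0.97 ± 0.23 (standard error) on the log2 scale (edgeR, adjusted p = 0.0434), and it was past the threshold in 9 of the 17 fits that left out 1 mouse. It was not past it with DESeq2 (adjusted p = 0.999), without shared barcodes (edgeR, adjusted p = 0.360), with no filter on low counts (edgeR, adjusted p = 0.130), with at least 30 nuclei a library (edgeR, adjusted p = 0.204) or with the replicate number as a block (edgeR, adjusted p = 0.176).

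No listed gene passed. The errors of these fits are approximate standard errors, the log2 value divided by the normal quantile of its two-sided p-value. In treated mice Flt3 differed by -0.35 ± 0.13 on the log2 scale (edgeR, adjusted p = 0.407), Zfp366 by -0.23 ± 0.14 (adjusted p = 0.70), Nfkb1 by 0.11 ± 0.17 (adjusted p = 0.916) and Zbtb46 by -0.06 ± 0.17 (adjusted p = 0.968). In cold mice Flt3 differed by -0.55 ± 0.16 (edgeR, adjusted p = 0.256). In CL mice Cadm1 differed by 0.79 ± 0.22 (edgeR, adjusted p = 0.158). Of the 13 NF-kB pathway genes tested in treated mice 0 passed and 11 had a negative value, as had 942 of all 1763, with a median of -0.19 against -0.02 over all genes. Of the 8 mature migratory genes 0 passed, with a median of -0.10. Of 161 peaks 0 passed, with 14 at an unadjusted p under 0.05 and 0 by DESeq2. All 14 treated libraries held fewer dendritic counts than every day 0 library.

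The share of dendritic counts in peaks with NF-kB letters was 6.33%, 6.36% and 6.63% in the day 0 mice and 5.66% to 6.72% in the treated mice. Of the 14 treated mice 11 were below every day 0 mouse and 1 was above. The means were 6.44% ± 0.167 (n = 3) and 6.09% ± 0.290 (n = 14), and the difference of -0.349 percentage points did not pass (two-sided exact permutation test, p = 0.0706). Over peaks away from gene starts it was -0.674 points, exact permutation p = 0.0118, and over unshared barcodes -0.317 points, exact permutation p = 0.257.

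**Figure D5:**
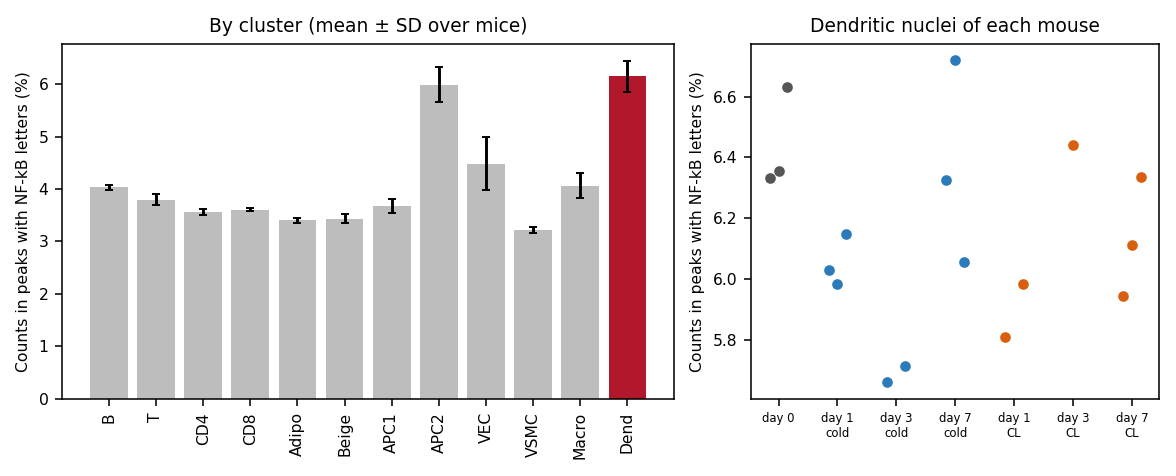
Percent of counts that fell in peaks with NF-kB letters, by cluster over mice and for the dendritic nuclei of each mouse by group (right, where the axis does not start at 0). Dendritic nuclei stand at 6.15% and macrophages at 4.07%, and treated mice overlap the day 0 mice.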

How the data were processed

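snATAC-seq reads were aligned by the authors with Bowtie2 to mm10, deduplicated within barcodes, and peaks were called with MACS2. Nuclei with few reads, few reads in peaks or a high Scrublet doublet score were removed before clustering with Signac. The deposited counts are a binary matrix of 189598 peaks by 32552 nuclei, which hides how many reads a nucleus had in a peak, with mouse, group and cluster of each nucleus in a separate table.

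Counts were summed per mouse and cluster over peaks and over protein-coding genes of GENCODE vM21, and motif letters were read from GRCm38.p6. edgeR 4.0.16 (quasi-likelihood, TMM, filterByExpr with a minimum count of 10, a total of 15 and a proportion of 0.7) tested treatment, with Benjamini-Hochberg adjustment over all features and DESeq2 1.42.0 as the alternative, in R 4.3.3. Shares and depths were compared by exact permutation in Python 3.11.15. Clusters were compared as log2 CPM with a prior count of 2. Intervals are exact Clopper-Pearson, and they and the floor of 3 counts cover counting error only. The fits were tested on simulated data.

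The members, gene lists and motif letters were chosen with earlier results of these data known. Named genes were the 3 markers, up to 4 members of a list with the largest smaller-of-both difference and up to 2 with the most negative, the 12 leading genes of all, the 8 leading peaks and the called genes. Other genes were named after their values were seen. The labels do not tie replicate numbers to batches. The paper reports 3 batches of snATAC-seq run independently, without tying them to replicate numbers. Samples with the same number did not deviate together (mean correlation -0.00665 over 35 pairs). Alternatives were another tool, prior count, scaling or filter, promoter peaks alone, other minimums of nuclei, a replicate block and leaving out each mouse. For the count of higher genes each group was left out in place of each mouse, and for dendritic-high peaks none was. Leaving out mice low in lymphocytes and nuclei with shared barcodes were chosen after seeing the data.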

Additional observations from a re-analysis of the deposited data

How the results depend on the processing

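The lower share of dendritic nuclei kept its direction under every alternative run, and its side of the threshold in all but the CL comparison without day 0 mouse 1 or 2. With each mouse left out in turn the difference ran from -7.13 to -3.10 points in treated, -7.06 to -3.02 in cold and -7.20 to -3.17 in CL mice. The depth difference was 0.170 with macrophages in place of B cells (exact permutation p = 0.142). The NF-kB share passed away from gene starts (-0.674 points, exact permutation p = 0.0118) and with at least 5 nuclei (-0.357 points, exact permutation p = 0.0475), and ranged from -0.403 to -0.253 points with a mouse left out, passing without day7C mouse 2 (-0.397 points, exact permutation p = 0.0179). The cause was not tested. Higher genes numbered 326, and 90 over promoter peaks alone (64 shared) or 631 with at least 30 nuclei (278 shared, fewer mice). TMM scaling gave 259. Dendritic-high peaks numbered 4276, and 2673 at 4 times, 8421 at 10 counts and 2206 over nuclei with at least 2000 counts. For the 352 named gene differences the alternatives left 4331 values the same, moved 88 and reversed 1. Of the moved values 36 were over promoter peaks alone. The difference of Zfp366 from the lymphoid clusters moved under 3 alternatives. The reversed value was that of Ikbkb, which turned to -0.21 from the lymphoid clusters over promoter peaks alone.

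The 1 gene called in treated mice by edgeR became 0 with DESeq2 (29 at an unadjusted p under 0.05), 0 over promoter peaks (15), 0 with at least 30 nuclei (326), 0 over unshared barcodes (148) and 4 with at least 5 nuclei. Cold mice had 2 genes without the filter and CL mice 1 with at least 5 nuclei. With a mouse left out the counts ran from 0 to 3 in treated, 0 to 0 in cold and 0 to 3 in CL mice. For peaks they ran from 0 to 1, and without the filter 1505 peaks passed, all lower. That fit takes in every peak with any dendritic count, and the fit with the filter called 0. All 14 treated libraries held fewer dendritic counts than every day 0 library, and the part of this in the 1505 was not tested.

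With the replicate number as a block, 0 genes passed in treated mice (121 at an unadjusted p under 0.05 with edgeR), 0 in cold and 0 in CL mice, and 0 peaks. The numbers were not shown to pair the mice, since none of 35 same-numbered pairs had a correlation over 0.1.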
